A study of Homo sapiens with 6 samples.

Results

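The transcripts of 10 YAP and TEAD pathway genes were followed in A549 cells after METTL3 was knocked down. They were taken by symbol from the 57781 rows of the deposited count table: the coactivators YAP1 and WWTR1 (which encodes TAZ), the DNA-binding factors TEAD1 and TEAD4, the target genes CTGF, CYR61 and ANKRD1, the angiomotin family gene AMOTL2, and the kinases LATS1 and LATS2. All 10 were found, and all 10 passed the filter on low counts that left 15125 genes for testing. A549 is an established human lung adenocarcinoma line, and METTL3 is the enzyme that writes N6-methyladenosine (m6A) on mRNA. There were 3 libraries from cells carrying an empty vector, labelled WT, and 3 from cells with METTL3 depleted by short hairpin RNA (shMETTL3), which the count columns number sh1 to sh3. The methods of the study say in general that its experiments were repeated independently, but neither they nor the labels say of these libraries whether they came from separate hairpins, clones or cultures. The p-values below therefore measure the spread between these libraries, which may be technical.

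In the Hippo pathway, the kinases STK3 and STK4 activate LATS1 and LATS2, which phosphorylate YAP and TAZ and keep them out of the nucleus. When LATS activity is low, YAP and TAZ enter the nucleus, bind TEAD factors and raise transcription of genes such as CTGF, CYR61 and ANKRD1. AMOTL2 and LATS2 are themselves targets of YAP and TEAD and restrain YAP in turn, so they serve as feedback. The pathway is known in lung epithelium for its response to cell density, shape and stiffness. The libraries measure mRNA only and hold no value for phosphorylation or for where the YAP protein lies, which is how the pathway is mostly regulated.

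METTL3 itself was lower in every shMETTL3 library. On the CPM scale, which puts read counts on a common library size by the TMM method, it stood at 49.4, 50.6 and 49.5 CPM in vector replicates 1, 2 and 3 and 18.9, 19.9 and 19.3 CPM in shMETTL3 replicates 1, 2 and 3. These values gave a log2 fold change of -1.36 (SE 0.0673). Its adjusted p was 4.57e-16 by the quasi-likelihood test of edgeR, corrected by the Benjamini-Hochberg method as were all gene-wise adjusted p-values here. Up to 232 bases of METTL3 exons overlap those of TOX4 on the other strand, and TOX4 had 1200 to 1579 counts per library. Library totals ran from 14931426 to 19108928 counts, and pairs of libraries within a group differed by more than sampling noise, with a chi-square per degree of freedom from 2.75 to 7.27. A gene was called changed at an adjusted p under 0.05, which 66.6% of the 15125 tested genes passed, 33.7% higher and 32.9% lower in the shMETTL3 libraries. Of 5 epithelial markers, all 5 were tested and all 5 were lower, with a summed level of 8981 to 9591 CPM in vector and 3927 to 4323 CPM in shMETTL3 libraries. In bulk RNA, fewer cells of a type and less RNA per cell cannot be told apart. Of 5 fibroblast markers, 1 was higher (COL1A1), 1 was not called and 3 had too few counts to be tested, and their summed level was 6.41 to 9.56 CPM in vector and 13.8 to 14.4 CPM in shMETTL3 libraries.

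Among the 10 members, 3 were higher in the shMETTL3 libraries (ANKRD1, CTGF and CYR61), 4 were lower (AMOTL2, TEAD4, LATS2 and YAP1) and 3 did not pass the test (WWTR1, TEAD1 and LATS1). Since 66.6% of all tested genes were called, 33.7% higher and 32.9% lower, the count of 7 in 10 is near the background and is not particular to these genes. The groups did not overlap for the same 7 members, against 69.4% of all tested genes. With a minimum absolute log2 fold change of 1 besides, 2 of the 10 members (ANKRD1 and AMOTL2) and 17.6% of all tested genes passed. The members' median log2 fold change was -0.059, with a range from -1.21 to 1.29, beside a median of 0.0022 over all tested genes. By single genes, the targets CTGF and CYR61 were higher while the feedback genes AMOTL2 and LATS2 were lower, and ANKRD1 was higher at low counts.

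**Figure D1:**
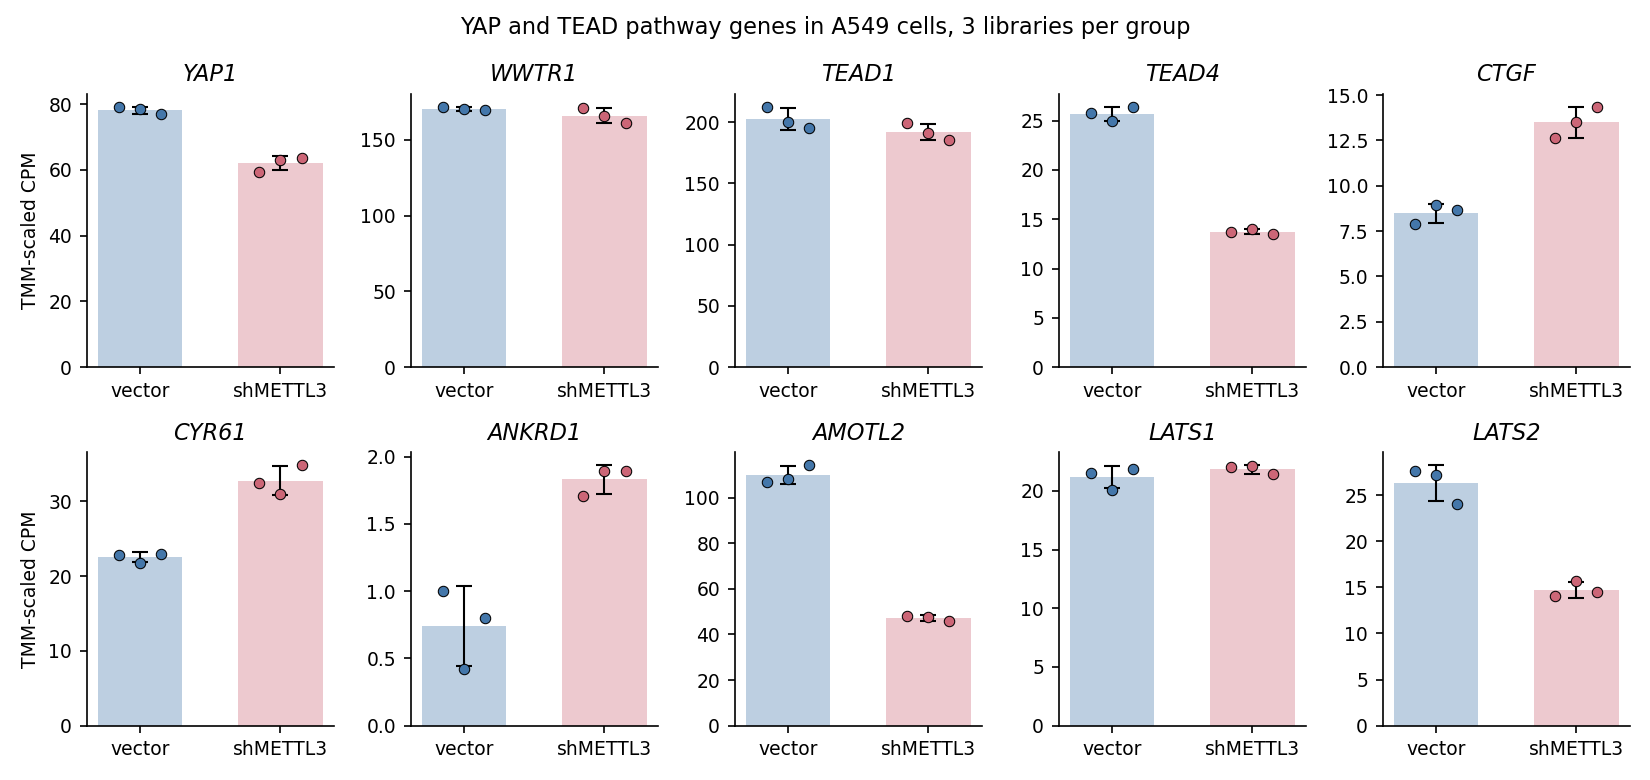
TMM-scaled CPM of the 10 members in the 3 vector libraries and the 3 shMETTL3 libraries. Points are libraries, bars are group means, error bars are the SD (n = 3), and each panel has its own axis from 0. The points of the groups stand apart for 7 genes and overlap for WWTR1, TEAD1 and LATS1.

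**Figure D2:**
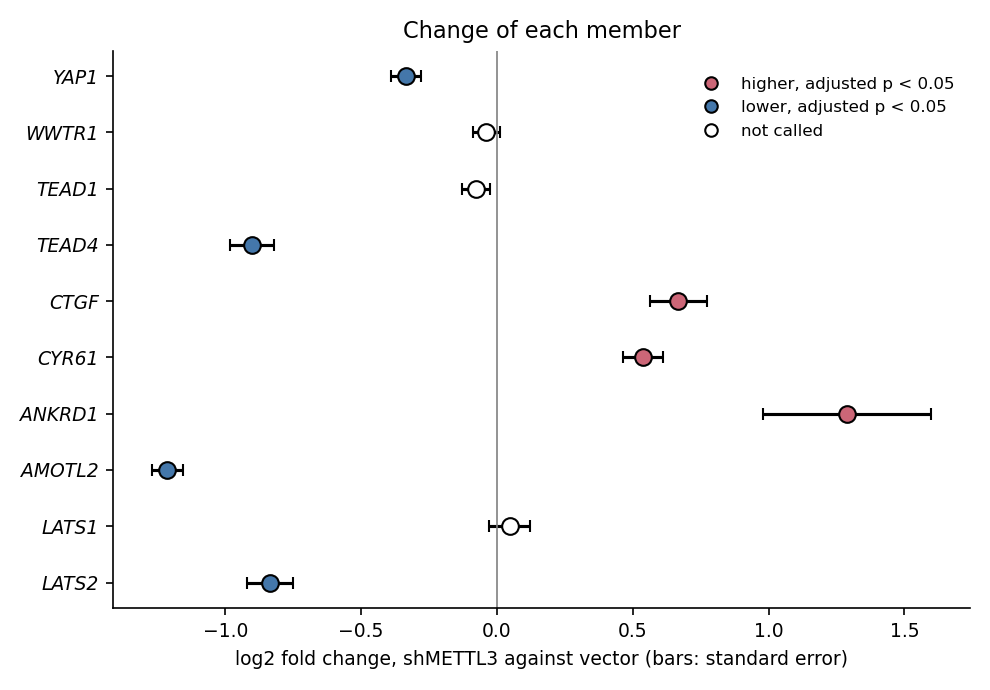
Log2 fold change of each member between shMETTL3 and vector libraries, with its standard error (SE) from edgeR (n = 3 libraries per group). Filled points passed an adjusted p under 0.05, and values run from -1.21 for AMOTL2 to 1.29 for ANKRD1.

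CTGF, also named CCN2, encodes a secreted matricellular protein and is the target most often used to read YAP activity. It had 142, 149 and 141 counts in vector replicates 1, 2 and 3 and 244, 271 and 228 counts in shMETTL3 replicates 1, 2 and 3. After scaling, CTGF stood at 7.91, 8.92 and 8.64 CPM in the vector libraries and at 12.6, 13.5 and 14.4 CPM in the shMETTL3 libraries. Each shMETTL3 library thus lay above each vector library. The means were 8.49 ± 0.52 and 13.5 ± 0.862 CPM (SD, n = 3), and the log2 fold change of CTGF was 0.67 (SE 0.105, adjusted p = 3.31e-06), a 1.59-fold rise. CTGF lies on the minus strand of GRCh37 at chr6:132269316-132272512, and its 5 exons overlap those of LINC01013 on the opposite strand by up to 148 bases. LINC01013 had 1 count over all 6 libraries.

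CYR61 (CCN1), a secreted relative of CTGF, lies on the plus strand at chr1:86046444-86050272. Its level was 22.8, 21.8 and 23.0 CPM in vector replicates 1, 2 and 3 and 32.4, 31.0 and 34.8 CPM in shMETTL3 replicates 1, 2 and 3. All 3 shMETTL3 values were above all 3 vector values. CYR61 thus had a log2 fold change of 0.54 (SE 0.0727, adjusted p = 2.88e-07), a 1.45-fold rise. Within a library, the log2 ratio of CTGF to CYR61 counts averaged -1.41 ± 0.119 in vector and -1.28 ± 0.0802 in shMETTL3 libraries (SD, n = 3). The ratios of the groups overlapped, with a difference of 0.13. A two-sided exact permutation test over libraries gave p = 0.2 (adjusted p = 0.2 over 4 pairs of genes), in a design that cannot go below p = 0.1 and so cannot reach 0.05 for any pair.

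ANKRD1 encodes an ankyrin repeat protein of the nucleus and the sarcomere, known as a stress gene of muscle and as a target of YAP. It lies on the minus strand at chr10:92671853-92680844 and was the lowest of the members, with 18, 7 and 13 counts in vector replicates 1, 2 and 3. In shMETTL3 replicates 1, 2 and 3 it had 33, 38 and 30 counts, all above the vector counts. The scaled levels were 0.74 ± 0.296 CPM in vector and 1.83 ± 0.106 CPM in shMETTL3 libraries (SD, n = 3). The log2 fold change of ANKRD1 was 1.29 (SE 0.308, adjusted p = 0.000588), a 2.44-fold rise whose error is the largest among the members. ANKRD1 passed the filter on low counts, which asks for about 10 counts in at least 3 libraries, only with the shMETTL3 libraries, since 2 of the 3 vector libraries reached that limit. With no filter it was at 1.28 (adjusted p = 0.000108). Without vector replicate 2, the lowest library, it was 1.01, and without vector replicate 1 it was 1.58.

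The promoters of these targets are shown because TEAD factors bind the sequence GGAATG, and the sequence before the CTGF start is the textbook example. The 250 bases before the annotated start were read from RefSeq windows of GRCh38.p14, in the direction of transcription, and the motif GGAATG on either strand (CATTCC on the other) is in capitals.

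CTGF, chr6:131951373-131951622, minus strand: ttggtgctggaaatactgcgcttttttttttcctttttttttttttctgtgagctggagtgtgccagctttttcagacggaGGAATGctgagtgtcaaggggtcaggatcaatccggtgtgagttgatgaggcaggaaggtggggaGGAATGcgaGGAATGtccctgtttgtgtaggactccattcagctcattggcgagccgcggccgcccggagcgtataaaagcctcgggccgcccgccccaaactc

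ANKRD1, chr10:90921088-90921337, minus strand: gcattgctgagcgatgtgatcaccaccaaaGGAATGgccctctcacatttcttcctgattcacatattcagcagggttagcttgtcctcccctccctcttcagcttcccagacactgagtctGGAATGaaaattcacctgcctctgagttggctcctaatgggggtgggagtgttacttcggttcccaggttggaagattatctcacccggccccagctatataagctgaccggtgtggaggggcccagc

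The CTGF window holds 3 copies of the motif, starting 169, 104 and 95 bases before the start and all on the strand of the gene. The ANKRD1 window holds 2 copies, starting 220 and 128 bases before the start. Among 35116 windows of the same length in the table, 11.9% hold the motif at least once, 0.940% at least 2 times, and 29 windows, or 0.0826%, at least 3 times. Windows were found for 7 of the 10 members, namely YAP1, WWTR1, CTGF, ANKRD1, AMOTL2, LATS1 and LATS2, and 4 of these 7 had the motif in a window, in both risen and fallen genes. Counted by gene, 3902 of the 27305 genes in the table, or 14.3%, had it. A match of letters says nothing of binding, which was not measured.

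AMOTL2 had the largest fall of the members. It encodes an angiomotin-like protein that binds YAP at cell junctions and holds it in the cytoplasm, and it lies on the minus strand of GRCh37 at chr3:134074189-134094321. Its level was 107, 108 and 114 CPM in vector replicates 1, 2 and 3 and 48.3, 47.8 and 45.7 CPM in shMETTL3 replicates 1, 2 and 3. The groups were far apart, with every shMETTL3 library under every vector library. AMOTL2 had a log2 fold change of -1.21 (SE 0.0556, adjusted p = 8.82e-17), which left 43.1% of the vector level. Among all genes called lower, 769 fell by more. The pseudogene RPL39P5 overlaps an AMOTL2 exon on the same strand.

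LATS2, on the minus strand at chr13:21547175-21635725, fell while its relative LATS1 did not pass the test. LATS2 stood at 27.6, 27.2 and 24.0 CPM in vector replicates 1, 2 and 3 and at 14.03, 15.7 and 14.5 CPM in shMETTL3 replicates 1, 2 and 3. No library of one group reached the other. The log2 fold change of LATS2 was -0.84 (SE 0.0833, adjusted p = 1.18e-09), or 56.0% of the vector level. LATS1, on the minus strand at chr6:149979289-150039241, stood at 21.5, 20.1 and 21.9 CPM in vector replicates 1, 2 and 3 and at 22.01, 22.1 and 21.4 CPM in shMETTL3 replicates 1, 2 and 3. These values of LATS1 overlapped, with a log2 fold change of 0.046 (95% confidence interval -0.11 to 0.20, adjusted p = 0.606). When libraries were scaled by their size alone, LATS1 was called higher, at 0.22 (adjusted p = 0.0133), a scaling that shifted the median of all tested genes by 0.17. Up to 253 bases of LATS1 exons overlap the unnamed gene ENSG00000278899 on the other strand.

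The kinases exchanged rank. The log2 ratio of LATS1 to LATS2 counts, which needs no scaling between libraries, averaged -0.31 ± 0.157 in vector and 0.57 ± 0.0763 in shMETTL3 libraries (SD, n = 3), a shift of 0.88. All shMETTL3 ratios were above all vector ratios, and an exact permutation test over libraries (two-sided) gave p = 0.1, which is the least that 3 libraries against 3 allow (adjusted p = 0.133 over 4 pairs). Expressed per length, as CPM per kilobase of the canonical transcript, LATS1 held 37.8% ± 2.58 of the summed LATS level in vector and 52.8% ± 1.32 in shMETTL3 libraries (SD, n = 3). The summed level of both kinases went from 7.62 ± 0.30 to 5.62 ± 0.176 CPM per kilobase.

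The windows before the AMOTL2 and LATS2 starts are given for comparison with those of the risen targets. AMOTL2 has 2 annotated starts in the table, and the window with a match is shown.

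AMOTL2, chr3:134374448-134374697, minus strand: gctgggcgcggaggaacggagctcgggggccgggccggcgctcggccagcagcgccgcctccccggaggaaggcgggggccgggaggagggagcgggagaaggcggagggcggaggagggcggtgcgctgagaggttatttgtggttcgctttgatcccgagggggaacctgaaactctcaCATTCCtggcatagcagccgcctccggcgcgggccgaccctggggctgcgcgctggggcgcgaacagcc

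LATS2, chr13:21061587-21061836, minus strand: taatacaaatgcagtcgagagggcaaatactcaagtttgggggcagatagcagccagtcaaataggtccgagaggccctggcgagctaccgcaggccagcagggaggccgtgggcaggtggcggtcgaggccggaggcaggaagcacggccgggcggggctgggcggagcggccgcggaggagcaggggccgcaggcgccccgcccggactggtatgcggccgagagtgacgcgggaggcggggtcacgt

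The AMOTL2 window holds the motif once, on the opposite strand, starting 69 bases before the start, and the LATS2 window holds 0 copies. Windows of the fallen AMOTL2 and LATS2 thus held fewer copies of these letters than those of CTGF and ANKRD1. This describes 4 genes and was not tested. CYR61, also a risen target, had no window. Among the further target genes described below, the fallen NUAK2 held 2 copies, the risen TGFB2 1 and the risen CCDC80 0.

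YAP1 fell moderately and WWTR1 did not pass the test. YAP1 lies on the plus strand of GRCh37 at chr11:101981178-102104155. Its level was 79.1, 78.4 and 76.9 CPM in vector replicates 1, 2 and 3 and 59.5, 63.0 and 63.6 CPM in shMETTL3 replicates 1, 2 and 3. Each shMETTL3 library lay below each vector library. For YAP1 the log2 fold change was -0.33 (SE 0.0548, adjusted p = 5.92e-06), or 79.3% of the vector level, and with scaling by library size alone it shrank to -0.16 (adjusted p = 0.0142). Genes called lower that fell by more numbered 3834, so its fall was not among the larger ones in these libraries.

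WWTR1, whose product TAZ shares the TEAD partners of YAP, lies on the minus strand at chr3:149235022-149454501. Its level was 172, 171 and 169 CPM in vector replicates 1, 2 and 3 and 171, 166 and 161 CPM in shMETTL3 replicates 1, 2 and 3, and the groups overlapped. WWTR1 had a log2 fold change of -0.04 (95% confidence interval -0.14 to 0.062, adjusted p = 0.492). Scaling by library size alone turned its direction and called it higher, at 0.13 (adjusted p = 0.0216). Exons of YAP1 and WWTR1 overlap genes on the opposite strand by up to 432 and 311 bases, and no source used here says whether reads were counted by strand. The partner of WWTR1, WWTR1-AS1, had between 4 and 17 counts in a library, against at least 2556 for WWTR1.

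Within the libraries, YAP1 fell relative to WWTR1. The log2 ratio of their counts was -1.12, -1.12 and -1.14 in vector replicates 1, 2 and 3 and -1.52, -1.40 and -1.34 in shMETTL3 replicates 1, 2 and 3. All 3 shMETTL3 ratios were lower, with a difference of -0.29 (p = 0.1 and adjusted p = 0.133 over 4 pairs in the same exact permutation test). Per length, WWTR1 was the more abundant coactivator in both groups, with 70.1% ± 0.155 of the YAP1 and WWTR1 level in vector and 74.1% ± 1.24 in shMETTL3 libraries (SD, n = 3). The window before the YAP1 start holds the TEAD motif once, starting 162 bases before it, beside 11.9% of all windows that hold it at least once. It is shown as the coactivator's own promoter, and binding was not measured.

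YAP1, chr11:102110197-102110446, plus strand: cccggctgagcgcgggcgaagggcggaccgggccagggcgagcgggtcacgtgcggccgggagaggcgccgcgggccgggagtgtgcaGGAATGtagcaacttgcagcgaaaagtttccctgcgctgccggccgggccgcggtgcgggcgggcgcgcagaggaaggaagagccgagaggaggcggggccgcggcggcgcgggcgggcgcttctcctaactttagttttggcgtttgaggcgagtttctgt

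The TEAD factors bind DNA and need a coactivator such as YAP to activate genes. TEAD4, on the plus strand of GRCh37 at chr12:3068496-3149842, stood at 25.7, 25.0 and 26.4 CPM in vector replicates 1, 2 and 3. In shMETTL3 replicates 1, 2 and 3 it was at 13.7, 14.02 and 13.5 CPM, with every value far under the vector values. TEAD4 changed by a log2 fold of -0.90 (SE 0.0794, adjusted p = 1.02e-10), or 53.5% of the vector level. TEAD1, on the plus strand at chr11:12695968-12966284, was at 213, 200.2 and 195 CPM in vector replicates 1, 2 and 3 and at 199, 191 and 185 CPM in shMETTL3 replicates 1, 2 and 3. These values of TEAD1 overlapped, and its log2 fold change of -0.08 (95% confidence interval -0.18 to 0.027) did not pass the test (adjusted p = 0.182). Without vector replicate 3, TEAD1 was called lower, at -0.11 (adjusted p = 0.0358), and with scaling by library size alone it was at 0.096 (adjusted p = 0.121), so the omission changed its call and the scaling its direction.

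The make-up of the TEAD family shifted towards TEAD1. The log2 ratio of TEAD1 to TEAD4 counts rose from 2.98 ± 0.0837 to 3.80 ± 0.0528 (SD, n = 3), with all shMETTL3 ratios above all vector ratios (p = 0.1 and adjusted p = 0.133 over 4 pairs in the same exact permutation test). Per length, TEAD4 held 29.9% ± 0.413 of the summed level of TEAD1 to TEAD4 in vector and 21.0% ± 0.73 in shMETTL3 libraries, while TEAD1 held 42.8% ± 1.92 and 53.2% ± 0.437 (SD, n = 3). The summed TEAD level went from 50.3 ± 1.34 to 38.3 ± 1.46 CPM per kilobase. Among the angiomotins, AMOTL2 held 69.4% ± 1.08 of the summed level in vector and 61.0% ± 0.367 in shMETTL3 libraries, and the sum went from 32.5 ± 0.987 to 15.9 ± 0.502 CPM per kilobase. For each of the 15 shares and 5 family sums computed, the same exact permutation test gave p = 0.1, again its least value, and adjusted p = 0.1. The lengths are those of canonical transcripts, and the isoforms that A549 cells use were not measured.

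**Figure D3:**
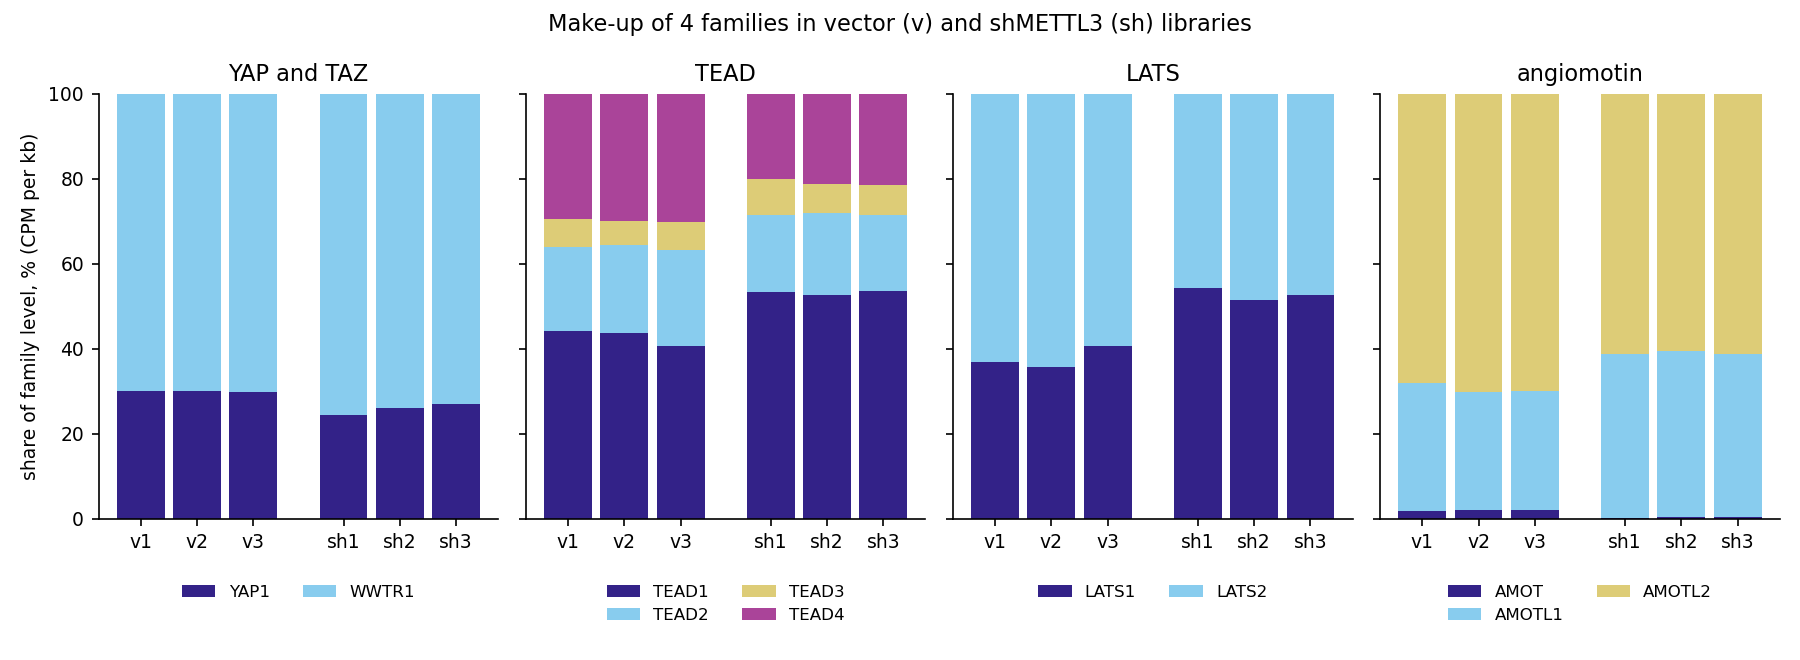
Share of each gene in the summed level of its family, in percent of CPM per kilobase of canonical transcript, for each vector (v1 to v3) and shMETTL3 (sh1 to sh3) library. LATS1 rises from 37.8% to 52.8% of the LATS level, TEAD4 falls from 29.9% to 21.0% of the TEAD level, and YAP1 and AMOTL2 also take a smaller share.

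The members can be ordered by mRNA level per length, which rests on canonical lengths since the isoforms in use were not measured. In the vector libraries WWTR1 led with 33.9 ± 0.256 CPM per kilobase, followed by AMOTL2 at 22.5 ± 0.821 and TEAD1 at 21.5 ± 0.961, which differed by about their spread (SD, n = 3). TEAD4 at 15.03 ± 0.427 and YAP1 at 14.5 ± 0.207 CPM per kilobase came next, and TEAD4 was above YAP1 in each of the 3 vector libraries by this measure, by a mean gap little larger than the SD of TEAD4. CYR61 stood at 9.89 ± 0.282, LATS2 at 4.74 ± 0.356, CTGF at 3.63 ± 0.223, LATS1 at 2.88 ± 0.127 and ANKRD1 at 0.413 ± 0.165 CPM per kilobase. In the shMETTL3 libraries CYR61, at 14.4 ± 0.846 CPM per kilobase, stood above YAP1 at 11.5 ± 0.41, AMOTL2 at 9.71 ± 0.279 and TEAD4 at 8.04 ± 0.143, all of which had been above it in the vector libraries. CTGF, at 5.78 ± 0.369, likewise passed LATS2 at 2.66 ± 0.151.

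Upstream of LATS and among other restraints of YAP, 18 of 19 listed genes were tested, of which 9 were higher and 4 lower, with a median log2 fold change of 0.22. The share called was 72.2%, beside 66.6% of all tested genes. Scaling by library size alone gave 12 higher and 3 lower with a median of 0.39, and without shMETTL3 replicate 1 there were 8 higher, FAT4 going from 0.34 (adjusted p = 0.00497) to 0.26 (adjusted p = 0.0541). AMOT, the founding angiomotin, fell from 84, 87 and 89 counts in vector replicates 1, 2 and 3 to 3, 9 and 7 counts in shMETTL3 replicates 1, 2 and 3, and passed the filter on low counts only through the vector libraries. Its log2 fold change was -3.86 (adjusted p = 1.37e-12), and with no filter -3.88 (adjusted p = 8.65e-45). AMOTL1 was lower as well, at -0.59 (adjusted p = 7.65e-10). All 3 angiomotin genes were thus called lower, beside 32.9% of all tested genes. SAV1, the scaffold of the kinases STK3 and STK4, was lower at -0.75 (adjusted p = 1.18e-10). MAP4K4, a kinase that can activate LATS, was lower at -0.24 (adjusted p = 0.00171), but not with scaling by library size alone, at -0.07 (adjusted p = 0.351). Higher genes were led by FRMD6 at 1.21 (adjusted p = 3.11e-09), RASSF1 at 0.78 (adjusted p = 3.40e-09), FAT1 at 0.59 (adjusted p = 2.05e-10) and NF2 at 0.57 (adjusted p = 2.55e-06), which encode membrane-linked or scaffold proteins that feed into the kinases. STK3 and STK4 themselves did not pass the test, with log2 fold changes of -0.093 and -0.10. Without vector replicate 3, STK4 was called lower, at -0.15 (adjusted p = 0.0189), and with scaling by library size alone STK3 and STK4 turned to 0.08 and 0.07 and did not pass. DCHS1 had 0 to 17 counts per library and was not tested.

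Of the 5 other genes that encode TEAD factors or their vestigial-like partners, 1 was higher and 2 were lower among 4 tested, or 75.0% called beside 66.6% of all tested genes. VGLL3, a vestigial-like cofactor that competes for TEAD, rose from 3.49 ± 0.753 to 12.0 ± 1.40 CPM (SD, n = 3), a log2 fold change of 1.78 (adjusted p = 2.45e-11). VGLL4, which blocks YAP from TEAD, fell at -0.74 (adjusted p = 2.42e-09), and TEAD2 fell at -0.58 (adjusted p = 9.26e-07). TEAD3 did not pass, at -0.14, and VGLL1 had 0 counts in every library. The cofactors that share TEAD with YAP thus moved in opposite directions, VGLL3 up and VGLL4 down.

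Among 17 further genes of a published YAP and TAZ target signature, all 17 were tested, 9 were higher and 6 lower, and 2 did not pass, with a median log2 fold change of 0.27. The share called, 88.2%, stands beside 66.6% of all genes, and no test compares the list with others. TGFB2, a transforming growth factor beta ligand, rose from 12.8 ± 0.706 to 69.4 ± 2.86 CPM (SD, n = 3), a log2 fold change of 2.44 (adjusted p = 5.23e-21). AXL, a receptor tyrosine kinase, rose at 1.96 (adjusted p = 1.15e-17), and CCDC80, a secreted matrix protein, at 1.93 (adjusted p = 2.44e-19). RBMS3, an RNA-binding protein, was near the limit of 3 counts in the vector libraries, with 3, 3 and 5 counts against 33, 35 and 21 counts in shMETTL3 replicates 1, 2 and 3, and passed the filter only through the latter. In the other direction, ARHGEF17 fell at -0.85 (adjusted p = 4.68e-11), PTPN14, which like AMOTL2 is both a target and a restraint of YAP, at -0.57 (adjusted p = 3.85e-08), GADD45A at -0.53 (adjusted p = 3.23e-07) and NUAK2 at -0.38 (adjusted p = 3.50e-06). With scaling by library size alone 11 were higher and 4 lower. Among the promoters, 12 of the 17 genes had a window and 5 of these held the TEAD motif, beside 14.3% of all genes with a window. They were the risen TGFB2, AXL and FOXF2 and the fallen PTPN14 and NUAK2. The window before another AXL start did not hold it.

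**Figure D4:**
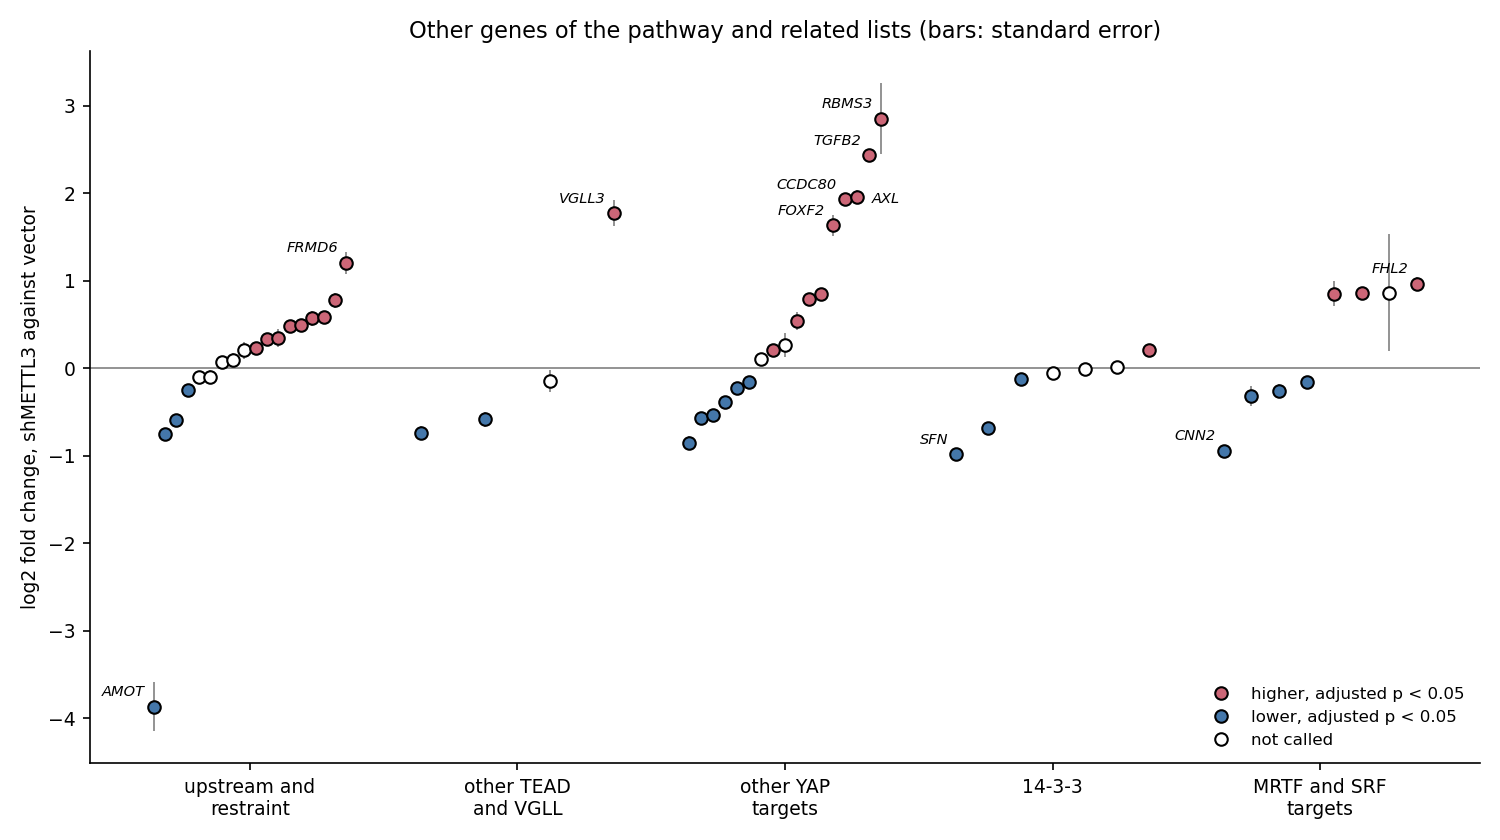
Log2 fold change, with its standard error, of every tested gene of 5 lists around the members, in shMETTL3 against vector libraries (n = 3 per group). Filled points passed an adjusted p under 0.05. Each list holds risen and fallen genes, and the outermost points, AMOT at -3.86 and RBMS3 at 2.85, rest on low counts in the shMETTL3 and in the vector libraries, respectively.

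Proteins of the 14-3-3 family bind YAP once LATS has phosphorylated it. Of their 7 genes, 1 was higher, 3 were lower and 3 did not pass, so that 57.1% were called beside 66.6% of all tested genes. The balance of directions depends on the scaling, since library size alone gave 4 higher and 2 lower, with YWHAB, YWHAH and YWHAQ added to the higher genes. SFN fell at -0.98 (adjusted p = 1.91e-13) and YWHAZ, the most abundant, at -0.68 (adjusted p = 1.70e-12), while YWHAG rose at 0.21 (adjusted p = 4.20e-04). YWHAE was at -0.12 (adjusted p = 0.0269), and scaling by library size alone turned it to 0.05 (adjusted p = 0.369). Without shMETTL3 replicate 1 or replicate 2 YWHAE no longer passed, at -0.09 (adjusted p = 0.17) and -0.12 (adjusted p = 0.0753). It also failed to pass with upper-quartile scaling, at -0.10 (adjusted p = 0.0715), and with a minimum of 10 counts in every library, at -0.11 (adjusted p = 0.0571).

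CTGF and CYR61 also respond to the factor SRF with its cofactor MRTF, which drives genes of the actin cytoskeleton. Of 10 such genes, 8 were tested, of which 3 were higher and 4 lower, or 87.5% called beside 66.6% of all tested genes. Without vector replicate 3 the balance turned to 4 higher and 3 lower. FHL2 rose at 0.97 (adjusted p = 3.39e-12), TPM1 at 0.86 (adjusted p = 1.02e-14) and TAGLN at 0.86 (adjusted p = 4.63e-06). CNN2 fell at -0.94 (adjusted p = 1.62e-13), ACTA2 at -0.32 (adjusted p = 0.0148), SRF at -0.26 (adjusted p = 0.00429) and VCL at -0.15 (adjusted p = 0.00854). Under library size alone, ACTA2, SRF and VCL were at -0.14, -0.082 and 0.021 and none of the 3 passed, so that only CNN2 of the falls remained on this list. ACTA2 also failed to pass without vector replicate 3 or without shMETTL3 replicate 1, at -0.25 (adjusted p = 0.0741) and -0.27 (adjusted p = 0.0751). ACTG2 had at most 2 counts in a library.

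The CCN relatives of CTGF and CYR61 changed by more than either. WISP2 (CCN5) rose from 43.3 ± 3.49 to 188 ± 1.03 CPM (SD, n = 3), a log2 fold change of 2.12 (adjusted p = 1.32e-21). NOV (CCN3) fell from 30.7 ± 2.82 to 2.57 ± 0.369 CPM, at -3.58 (adjusted p = 7.52e-20). WISP1 and WISP3 had at most 2 counts in a library. CTGF and CYR61 took a smaller share of the family's level per length in the shMETTL3 libraries, 3.43% ± 0.202 and 8.53% ± 0.475, than in the vector libraries, 6.08% ± 0.272 and 16.6% ± 1.16 (SD, n = 3), although both had risen.

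The rise of CTGF and CYR61, genes that fibroblasts also express, went with a rise of the fibroblast marker COL1A1 from 5.64 ± 1.44 to 10.5 ± 0.452 CPM (SD, n = 3). COL1A2 had 0 counts in 5 of the 6 libraries and 3 in the other, DCN had at most 7 counts and PDGFRB at most 6. Of the leukocyte and endothelial markers, CD14 and CDH5, which passed the filter only through the shMETTL3 libraries, were called higher, from 5 to 16 and from 0 to 2 counts in vector libraries to between 105 and 125 and between 28 and 30 counts in shMETTL3 libraries, while PTPRC had at most 1 count and VWF and CD3E 0 counts in every library. PECAM1 was not matched by its symbol. The part of these markers, or of the fall of the epithelial markers, in the changes of the pathway genes was not tested.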

How the data were processed

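RNA from 3 vector and 3 shMETTL3 libraries of A549 cells was sequenced. The deposited values are raw read counts per gene and library, made by the authors by mapping to hg19 with HISAT2 and counting with htseq. The submitters' processing notes name cutadapt 3.0, HISAT2 2.2.1, SAMtools 1.13 and HTSeq 0.13.5, while the paper names other HISAT2 and htseq versions. The gene annotation and strand setting are not given in the sources used here. Groups and replicate numbers came from the sample titles.

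All genes were fitted together in R 4.3.3 with edgeR 4.0.16 (TMM, filterByExpr, glmQLFit, glmQLFTest, group only), with Benjamini-Hochberg adjustment over 15125 genes and a threshold of 0.05. Standard errors came from the unshrunk coefficient and F statistic, and confidence intervals of 95% from these with the test's degrees of freedom. Ratios of 2 genes used counts plus 0.5 and an exact permutation test over libraries. Positions and canonical lengths came from GENCODE on GRCh37, the build the authors call hg19, and promoters from RefSeq on GRCh38.p14. A count of 3 corresponds to 0.157 to 0.201 CPM, and covers counting error only.

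The alternatives were RLE, upper-quartile and library-size scaling, no filter, a minimum of 10 counts for each library, a replicate block, omission of each library, stricter thresholds, limma-voom (limma 3.58.1) and DESeq2 1.42.0. The functions were tested on simulated data with few changed genes, which does not test the scaling where most genes change. The members and lists were chosen with earlier results of these data known. The genes named were METTL3, the members, the up to 4 largest rises and 4 largest falls called on each list, and genes with few counts. STK3, STK4, FAT4, TEAD3, FOXF2, YWHAB, YWHAH, YWHAQ and the cell type markers were named beside them after their values were seen.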

Additional observations from a re-analysis of the deposited data

How the results depend on the processing

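Of 297 gene-wise values and counts recomputed under the alternatives, 283 kept their direction and their side of the threshold, or a count within 1.5 times. The 28 recomputed ratios of gene pairs kept their direction, but their test cannot reach the threshold, so its side says nothing. AMOTL2, TEAD4, LATS2, YAP1, CTGF, CYR61 and METTL3 did so under 14 of 14 alternatives, and ANKRD1 under the 13 that could test it, since the minimum of 10 counts in every library removed it. Scaling by library size alone gave 5 higher members, adding WWTR1 at 0.13 and LATS1 at 0.22, and turned TEAD1 to 0.096 without a call. It gave 4 changed MRTF and SRF targets and made 65.8% of all called genes higher, against 50.6%. A minimum absolute log2 fold change of 1 left 17.6% of all tested genes and 2 members, 1 higher and 1 lower, 2 upstream and restraint genes, 1 TEAD or VGLL gene, 5 other YAP targets, 0 genes of the 14-3-3 family and 0 MRTF and SRF targets, because it removes small changes. When single libraries were omitted, TEAD1 ran from -0.11 to -0.049. The deviations of same-numbered libraries had correlations between -0.0066 and 0.052, which cannot show whether these libraries shared a culture or a batch. A fit with the replicate block called 7 members, with YAP1 at -0.33, and 10111 genes in all against 10067. The low counts of ANKRD1, RBMS3 and AMOT limit the precision of their folds, and the minimum of 10 counts removed all 3.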
